A study of Mus musculus with 26 samples.

Results

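Dysferlin and the annexins were followed across a panel of mouse muscular dystrophy models. The members were all genes on the array named Dysf or Anxa followed by a number, whatever their values. There were 11 of them among the 6540 genes measured, namely Dysf and 10 annexins (Anxa1, Anxa3 to Anxa11), each on 2 rows of the array that were averaged. A reference table of mouse genes lists 12 annexins, of which Anxa2 and Anxa13 were not measured in the rows used here.

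The study held 13 groups with 2 RNA samples each, hybridised on 26 arrays with 2 channels, so that each sample was read once in each channel and the arrays closed into 1 loop. The wild type strains were bl6 and bl10. The dystrophin-deficient lines were mdx and mdx3cv. The sarcoglycan-deficient lines were sgca, sgcb, sgcb2, sgcd and a further one, which enters the pooled means but gets no results of its own here. The dysferlin-deficient lines were dysf and sjl, the sarcospan-deficient line was sspn, and hDMD carried the human DMD gene. The 7 dystrophin- or sarcoglycan-deficient lines, 14 samples, are called the DS lines below. The sources used here give no tissue, age, sex, background strain or dye. Nor is it stated whether a group's 2 samples are from different animals, so p-values reflect the spread between samples, possibly a technical one. Strain and missing protein cannot be told apart.

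A muscle fibre whose membrane is torn reseals it within moments of calcium entering. Dysferlin, a membrane protein with many calcium-binding C2 domains, is needed for this resealing, and its loss causes limb girdle muscular dystrophy. Annexins are soluble proteins that bind acidic phospholipids when calcium rises, gather at the wound and help to form the cap over it. They also act elsewhere: annexin A1 is abundant in macrophages and neutrophils and restrains inflammation, and annexin A5 binds phosphatidylserine on dying cells. Dystrophin and the sarcoglycans belong to a different machine, the complex that ties the cytoskeleton to the matrix and keeps the membrane from tearing.

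The members lie on 7 chromosomes of the GRCm38.p6 build. Dysf spans chr6:84008361-84211060, Anxa1 chr19:20373434-20390671 and Anxa7 chr14:20455261-20480133. Upstream windows of 250 bases, from RefSeq's start sites in the same build, were found for 9 of the 11 members, all but Anxa3 and Anxa6, in 13 windows. The windows below belong to the 3 members whose transcripts rose in the DS lines and to Anxa10, the member whose group levels ran most opposite to those of Anxa1. Each is written 5′ to 3′ along its gene's strand and ends at the base before the start site. Capitals mark matches, on either strand, to TATAAA (the TATA box), GGGCGG (the GC box), TGANTCA (the AP-1 site), GAGGAA (an ETS core), AGAACA (a word of steroid receptor sites) or CCAAT.
Anxa1, minus strand, chr19:20390672-20390921: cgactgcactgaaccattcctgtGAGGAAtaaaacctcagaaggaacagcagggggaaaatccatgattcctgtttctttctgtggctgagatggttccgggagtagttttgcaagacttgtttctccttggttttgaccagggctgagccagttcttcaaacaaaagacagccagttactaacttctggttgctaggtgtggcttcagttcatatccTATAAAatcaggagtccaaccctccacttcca
Anxa7, minus strand, first start, chr14:20480134-20480383: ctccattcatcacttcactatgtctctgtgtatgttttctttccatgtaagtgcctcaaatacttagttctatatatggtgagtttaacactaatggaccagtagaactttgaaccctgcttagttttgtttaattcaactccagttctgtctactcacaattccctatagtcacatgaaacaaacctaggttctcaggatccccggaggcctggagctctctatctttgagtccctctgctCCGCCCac
Dysf, plus strand, start inside the gene, chr6:84019136-84019385: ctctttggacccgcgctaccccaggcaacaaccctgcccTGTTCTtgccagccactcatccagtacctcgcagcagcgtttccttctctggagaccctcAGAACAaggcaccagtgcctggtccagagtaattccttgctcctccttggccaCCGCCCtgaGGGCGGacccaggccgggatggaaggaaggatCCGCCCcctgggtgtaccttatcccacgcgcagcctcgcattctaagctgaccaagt
Anxa10, minus strand, chr8:62123194-62123443: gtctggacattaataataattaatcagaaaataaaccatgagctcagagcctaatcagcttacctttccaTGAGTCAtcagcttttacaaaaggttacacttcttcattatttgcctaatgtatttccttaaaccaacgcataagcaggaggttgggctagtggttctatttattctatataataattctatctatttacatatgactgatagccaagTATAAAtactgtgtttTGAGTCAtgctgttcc

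The windows differ in kind. Anxa1 and Anxa10 each hold TATAAA beginning 32 bases before the start, a word that 12.4% of 32851 mouse upstream windows of this length contain. Anxa1 also holds GAGGAA (23.3% of all windows), and Anxa10 holds TGANTCA at 2 places (6.75% of all windows). The window of Anxa7 has GGGCGG 8 bases before the start, on the opposite strand. The window of its second start, which overlaps the annotated gene and is not printed, has 4 matches, 16 CpG and a GC content of 62%. That of the internal Dysf start has 3 matches to GGGCGG (32.7% of all windows) and 2 to AGAACA (16.1%). The window at the first Dysf start, partly inside the annotated gene, had no match to any of the 6 words. CCAAT, present in 33.8% of all windows, was in none of those printed. The printed windows had 2, 2, 11 and 1 CpG in the order given, against a median of 6 over all windows, and GC contents of 46%, 42.4%, 61.2% and 33.6% against 52.4%. These matches describe letters and are not evidence of binding.

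All values are log2 ratios, and a group's level is its fitted log2 value relative to the mean of both wild type strains. Array ratios hold no absolute amount, so a level says nothing of how abundant a transcript is. The direction, channel 1 over channel 2, was not stated and is likely rather than known. It rests on Sgca, the alpha-sarcoglycan gene, which was lower in sgca on 4 of 4 arrays (-5.39 to -2.55; fitted -4.33 ± 0.49, SE, n = 2 samples; limma adjusted p = 6.98e-05), and on the sarcospan gene Sspn, lower in sspn on 4 of 4 arrays (-3.09 to -0.55; limma adjusted p = 0.253). Dysf belonged to the same check and did not bear it out. It was lower on 1 of 4 arrays of dysf and on 1 of 4 of sjl, with fitted levels of 0.55 and 0.76. The opposite direction would turn every sign below. A gene was called when limma's adjusted p, by Benjamini-Hochberg over all 6540 genes, was under 0.05.

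Of the 11 members, 3 rose in the DS lines: Anxa1, Anxa7 and Dysf. Anxa1 was 5.52-fold higher than in wild type, Dysf 2.33-fold and Anxa7 1.96-fold. No member fell. In this comparison 7.8% of all genes were called. The median difference of the 11 members was 0.85 on the log2 scale, against 0.0585 over all genes, and 9 of 11 lay above 0, against 55.5% of all genes. By the unadjusted limma p, 7 of 11 members were under 0.05, against 21.9% of all genes.

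Anxa1 encodes the annexin best known for ending inflammation, and it showed the largest difference among the members. On the arrays that held a DS line beside wild type, Anxa1 was 5.00 higher in mdx sample 1 than in bl6 sample 1. It was 3.35 higher in sgca sample 1 than in bl6 sample 2, and 2.62 higher in sgcb2 sample 1 than in bl10 sample 1. In mdx3cv sample 2 against bl10 sample 2 the ratio was 0.51. Anxa1 was higher in the deficient line on 5 of 5 such arrays, and least so in mdx3cv. Levels solved for each sample from the whole loop ran in the DS lines from -0.40 through a median of 2.13 to 4.56. In wild type they were -0.81 and 0.33 (bl6) and -0.21 and 0.68 (bl10). Of the 14 DS samples 13 lay above the highest wild type sample, the exception being sgcb sample 2. The fitted difference was 2.46 ± 0.50 (SE; limma adjusted p = 0.00617), and its 2 rows gave 2.49 and 2.44.

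The Anxa1 call hung on 1 array. Without the array of mdx sample 1 and bl6 sample 1 the difference was 1.97 ± 0.50 (limma adjusted p = 0.052). Without mdx sample 1 it was 1.85 (limma adjusted p = 0.063), without bl6 sample 1 it was 2.05 (0.0976), and against bl10 alone it was 2.30 ± 0.63 (0.135). Without that 1 array 110 genes were called in place of 510, and none of the 11 members.

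Anxa7, also called synexin, promotes membrane fusion and was the most even of the members. Solved sample levels were -0.17 and 0.13 in bl6 and 0.15 and -0.11 in bl10. All 14 DS samples lay above these, from 0.20 through a median of 0.62 to 1.41, so that the groups did not overlap, as was so for 14 of the 6540 genes (0.214%) in this direction. On the direct arrays Anxa7 was higher on 5 of 5, at 1.31 in mdx, 0.98 in sgcb2, 0.41 in sgca and 0.21 in mdx3cv. The fitted difference was 0.97 ± 0.24 (SE; limma adjusted p = 0.0158), and its 2 rows gave 1.04 and 0.91. The call was lost against bl6 alone (0.97, limma adjusted p = 0.0591), against bl10 alone (0.97, adjusted p = 0.183) and without the array named above (0.94, adjusted p = 0.0713). It was also lost in 7 of 26 fits that left out 1 sample: either of bl10, sample 1 of bl6, mdx or sgcb2, mdx3cv sample 2 and a sample of the fifth sarcoglycan line. The size stayed between 0.89 and 1.04 over those fits.

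Dysf, the resealing gene itself, rose in the DS lines but was the least secure of the called members. Solved levels in wild type were widely spread, at 0.33 and -0.85 in bl6 and -0.83 and 1.34 in bl10. In the DS lines they ran from -0.75 through a median of 1.57 to 2.49, and 8 of 14 samples exceeded the highest wild type sample. The groups therefore overlapped. On the direct arrays Dysf was 2.78 higher in sgca and 2.11 higher in mdx, against bl6, but 0.54 in sgcb2 and -0.25 in mdx3cv, against bl10. It was higher on 4 of 5 arrays. The fitted difference was 1.22 ± 0.35 (SE; limma adjusted p = 0.0358). One row of the gene gave 1.56 (limma adjusted p = 0.022) and the other 0.88 (adjusted p = 0.157). The difference was 0.94 against bl10 alone (adjusted p = 0.444), and the call was lost in 15 of the 26 fits that left out 1 sample, among them each of the 4 wild type samples, mdx sample 1 (1.08) and sgca sample 1 (0.73), with values from 0.73 to 1.53.

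**Figure D1:**
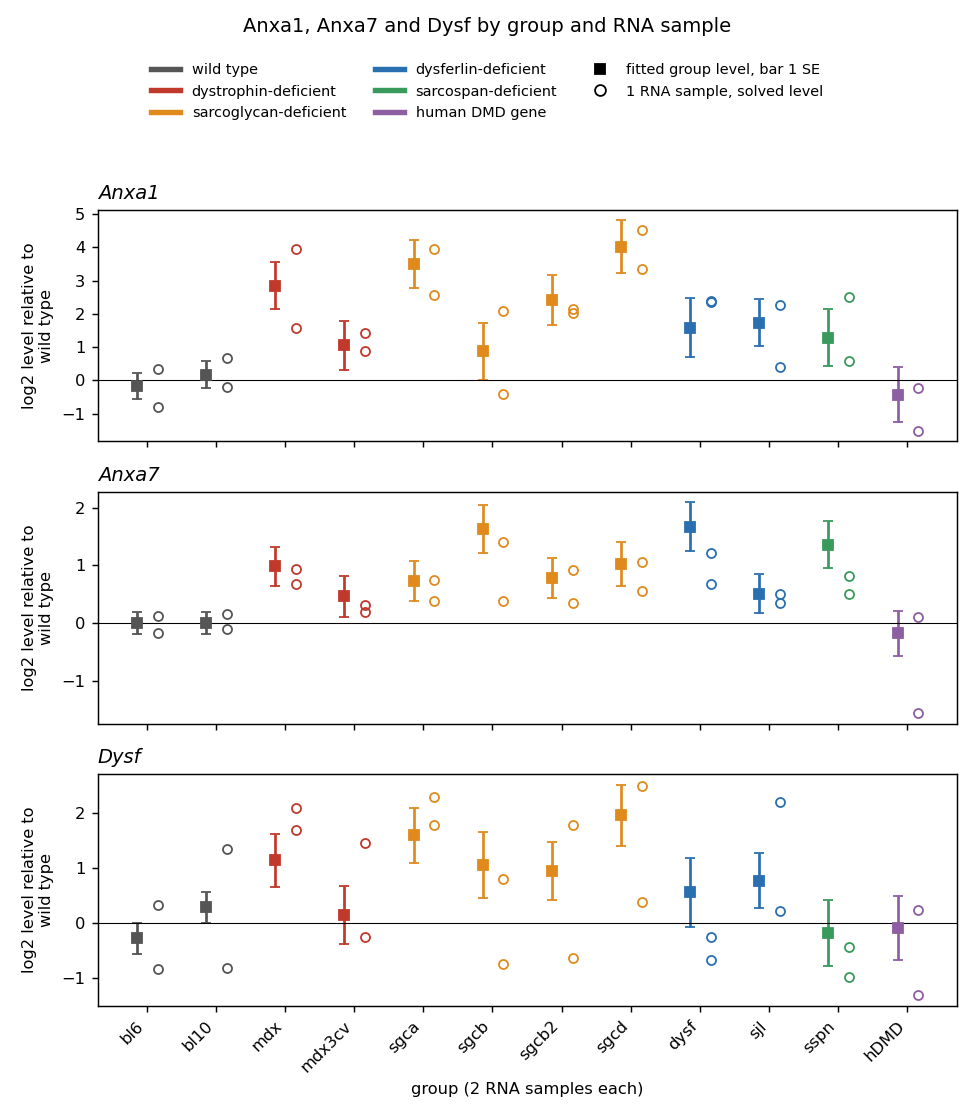
Levels of Anxa1, Anxa7 and Dysf (y axis, log2 relative to wild type) in 12 groups (x axis); squares are fitted group levels with bars of 1 SE and circles are levels solved for the 2 RNA samples of each group. Each circle carries the error of every array between it and the others in the loop, so both circles can lie to one side of their square, as for Dysf in dysf (-0.68 and -0.26 against 0.55); for Anxa7 all circles of the dystrophin- and sarcoglycan-deficient lines lie above the wild type circles, while for Dysf they overlap.

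The other members did not pass. Anxa5, the phosphatidylserine-binding annexin, was 1.34 ± 0.50 higher (SE; limma adjusted p = 0.112), and Anxa3, an annexin of neutrophil granules, 1.01 ± 0.35 (adjusted p = 0.0833). Anxa4, found mainly in epithelia, was at 0.85 ± 0.36 (adjusted p = 0.159). Each of these had an unadjusted p under 0.05. Anxa10, an annexin of the stomach lining, was at -0.65 ± 0.30 (adjusted p = 0.212). Anxa8 (0.34), Anxa6 (0.27), Anxa9 (0.26) and Anxa11 (-0.24) had limma adjusted p from 0.457 to 0.745. Anxa6 is the large annexin recruited to the repair cap of muscle fibres, and its 95% interval reached from -0.52 to 1.05. The rows of Anxa5 disagreed, at 1.82 and 0.87, and lay up to 5.60 apart on 1 array, that of sjl sample 2 and bl6 sample 1.

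**Figure D2:**
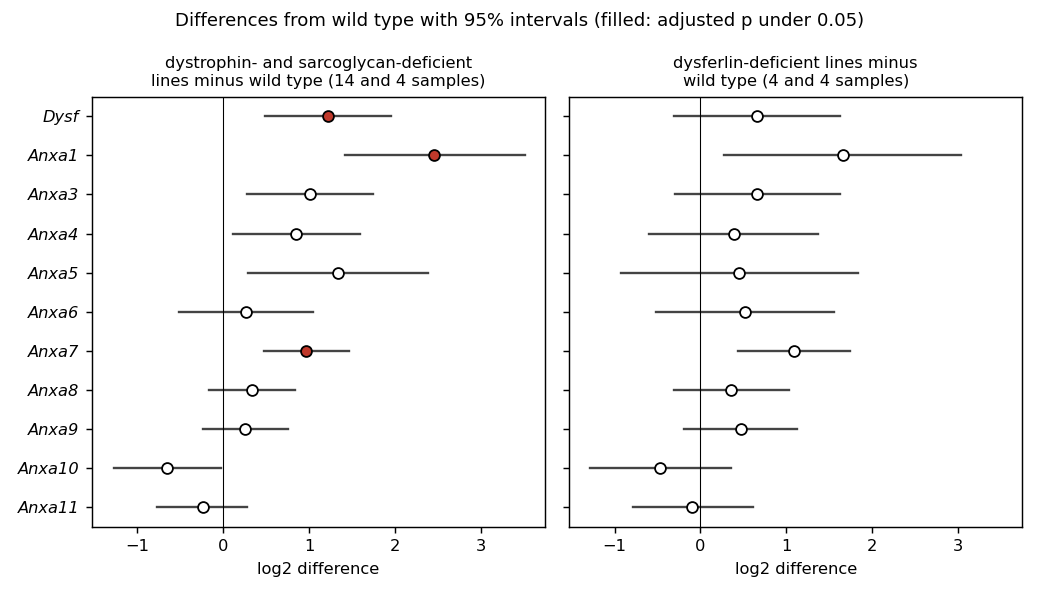
Log2 difference from wild type (x axis) of the 11 members (y axis), with 95% intervals, for the dystrophin- and sarcoglycan-deficient lines on the left and the dysferlin-deficient lines on the right. Filled points passed limma's test after adjustment over all genes: Anxa1 (2.46), Dysf (1.22) and Anxa7 (0.97) on the left and none on the right.

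In the dysferlin-deficient lines the fitted Dysf level was not below wild type, but both solved levels of dysf lay below the wild type mean. Solved levels were -0.68 and -0.26 in dysf and 2.19 and 0.22 in sjl, against -0.85 to 1.34 in wild type, so that the groups overlapped. The 4 arrays of dysf gave 0.42 against sgcb, 1.09 against sspn, 0.70 against hDMD and -2.37 against the fifth sarcoglycan line. The 4 arrays of sjl gave 0.0447 against sgca, 0.27 against the fifth line again, 0.35 against hDMD and -0.47 against bl6. Dysf was thus lower in the dysferlin-deficient line on 1 of 4 arrays for each line. The fitted level was 0.55 ± 0.62 in dysf (SE; limma adjusted p = 0.82) and 0.76 ± 0.50 in sjl (adjusted p = 0.729). Pooled, the lines stood 0.66 above wild type, with a 95% interval from -0.31 to 1.62 (adjusted p = 0.772), or from 0.10 without sjl sample 1 to 1.45 without sjl sample 2. SJL mice carry a splice-site change in Dysf that shortens the transcript and depletes the protein. Where the array's rows lie within the transcript was not given. Whether these rows read the changed part was not tested.

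None of the 11 members was called in the dysferlin-deficient lines (4 samples) against wild type (4 samples), where limma called 0.0459% of all genes and 2 members had an unadjusted p under 0.05 (8.78% of all genes did). These were Anxa7, at 1.09 ± 0.31 (limma adjusted p = 0.282), and Anxa1, at 1.66 ± 0.66 (adjusted p = 0.467). Solved Anxa7 levels were 0.68 and 1.22 in dysf and 0.50 and 0.34 in sjl, all 4 above the highest wild type sample (1.15% of all genes had all 4 above). Solved Anxa1 levels were 2.36 and 2.39 in dysf and 2.28 and 0.39 in sjl, with 3 of 4 above it. The median of the members was 0.47, against 0.12 over all genes. The difference between the DS and the dysferlin-deficient lines was tested directly. No member passed (0.122% of all genes did, and an unadjusted p under 0.05 was found for 0 members and 8.44% of all genes). Anxa5 came closest at 0.88 ± 0.50 (limma adjusted p = 0.678), followed by Dysf at 0.56 ± 0.35 and Anxa1 at 0.81 ± 0.50 (adjusted p = 0.718 each). These comparisons share the wild type samples, and a p that misses the threshold does not show that the lines were alike.

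One array held a dysferlin-deficient line beside wild type. This hybridisation of sjl sample 2 against bl6 sample 1 gave 0.94 for Anxa1 and 0.31 for Anxa7. It gave -2.17 for Anxa10, -1.95 for Anxa11 and -1.68 for Anxa6, whereas the fitted differences of the pooled dysferlin-deficient lines were -0.47, -0.0925 and 0.52. The Anxa5 value of -1.83 averaged rows of opposite sign, which as bl6 over sjl were -0.97 and 4.63.

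**Figure D3:**
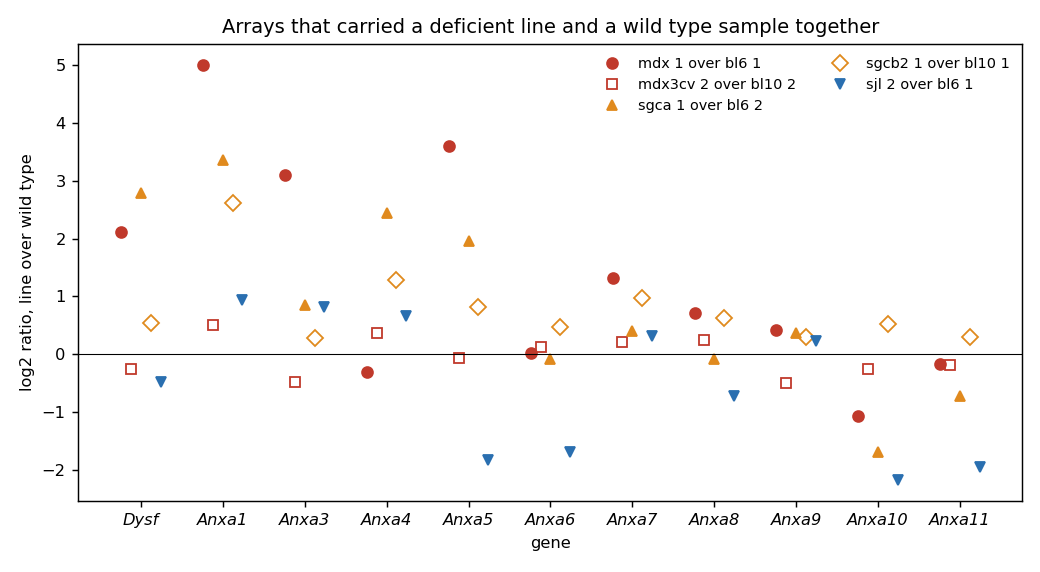
Log2 ratio of a deficient line over wild type (y axis) for the 11 members (x axis) on the arrays that carried both samples of a named line and a wild type strain, 1 point per array. Anxa1 and Anxa7 lie above 0 on each array drawn, whereas Dysf is at 2.78 in sgca and 2.11 in mdx but at -0.25 in mdx3cv and -0.47 in sjl.

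Among single lines Anxa1 was the only member called. It rose in sgcd to 4.02 ± 0.80 (SE, n = 2; limma adjusted p = 0.0163; 2.13% of all genes called), in sgca to 3.50 ± 0.71 (adjusted p = 0.00728; 7.42%) and in mdx to 2.85 ± 0.70 (adjusted p = 0.0475; 1.33%). The sgca call was lost without sgca sample 1 (2.41, adjusted p = 0.875). That in sgcd was lost without bl10 sample 1, sgca sample 2 or either sample of sgcb2 or sgcd (3.70 to 4.10). The mdx call was lost in 15 of 26 fits that left out 1 sample (1.01 without mdx sample 1), and without the array of mdx sample 1 and bl6 sample 1 (1.84 ± 0.77, adjusted p = 0.82). In the other DS lines Anxa1 stood at 2.42 in sgcb2, 1.06 in mdx3cv and 0.87 in sgcb, and no member passed there. The shares of all genes called were 0.199% in sgcb2, 0% in mdx3cv and 0.107% in sgcb, and 2, 0 and 4 members had an unadjusted p under 0.05, as did 9.04%, 8.65% and 11.2% of all genes. Dysf reached its highest level among the named lines in sgcd (1.95 ± 0.56, adjusted p = 0.0716), followed by sgca (1.59 ± 0.50, adjusted p = 0.0571).

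Anxa7 ordered the lines differently from Anxa1 and Dysf. It was highest in dysf (1.67 ± 0.42; limma adjusted p = 0.199) and sgcb (1.63 ± 0.41; adjusted p = 0.21). Next came sspn (1.36 ± 0.41; adjusted p = 0.203). Solved Anxa7 levels were 0.68 and 1.22 in dysf, 1.41 and 0.39 in sgcb and 0.81 and 0.51 in sspn. They overlapped those of mdx (0.94 and 0.68), sgcd (0.56 and 1.06) and sgcb2 (0.92 and 0.35). Samples of dysf, sgcb and sspn were hybridised against each other, and dysf sample 2 and sgcb sample 2 also against hDMD sample 1. The fitted levels of Anxa6 were also highest in dysf (1.56), sgcb (1.38) and sspn (0.91), and at most 0.21 in the other named groups. Its solved sample levels did not show this: they were -0.13 and 0.25 in dysf, 0.38 and -0.88 in sgcb and -0.11 and -1.14 in sspn, against -0.59 to 0.52 in wild type. Without hDMD sample 1 the fitted Anxa6 level was 0.52 in dysf and 0.38 in sspn. Without hDMD sample 2 it was 0.64 in sgcb. Fitted levels of Anxa8 were 0.99 in sgcb, 0.84 in sspn and 0.80 in both sgcd and dysf, and its solved levels in sgcb, dysf and sspn (0.14 to 0.77) overlapped wild type (-0.83 to 0.62). No member passed in dysf (0.107% of all genes called), sjl (0.245%), sspn (0.107%) or hDMD (0.0153%) against wild type, where by limma 2, 1, 1 and 1 members had an unadjusted p under 0.05, as did 8.46%, 9.63%, 12.1% and 6.56% of all genes. In hDMD, 7 of the 11 members lay below 0, with Anxa5 lowest at -1.74 ± 0.83 (adjusted p = 0.757), or at -0.19 without hDMD sample 1 and -3.97 without sample 2. Of the 78 pairs of groups, those of hDMD with dysf, sgca, sgcb and sgcd held members called by limma, lower in hDMD: Anxa6 and Anxa7 against dysf (2.4% of all genes called), Anxa1 against sgca (3.12%), Anxa3, Anxa5, Anxa6 and Anxa7 against sgcb (5.66%) and Anxa1 and Anxa5 against sgcd (1.99%). The other called pairs were those of bl6 with mdx (Anxa1), with sgca (Anxa1, Dysf and Anxa3 higher and Anxa10 lower in sgca) and with sgcd (Anxa1), where 4.01%, 12.2% and 3.67% of all genes were called. These p-values were not adjusted over the pairs.

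Between neighbours in the order of the 13 group levels, no member differed by more than 2 SE of the difference. For Anxa1 the order among the named groups ran sgcd, sgca, mdx, sgcb2, sjl, dysf, sspn, mdx3cv, sgcb, bl10, bl6, hDMD. For Dysf it ran sgcd, sgca, mdx, sgcb, sgcb2, sjl, dysf, bl10, mdx3cv, hDMD, sspn, bl6. For Anxa7 it ran dysf, sgcb, sspn, sgcd, mdx, sgcb2, sgca, sjl, mdx3cv, bl10, bl6, hDMD. The line mdx3cv stood near the foot of the deficient lines for each of these genes, at 1.06, 0.14 and 0.46.

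**Figure D4:**
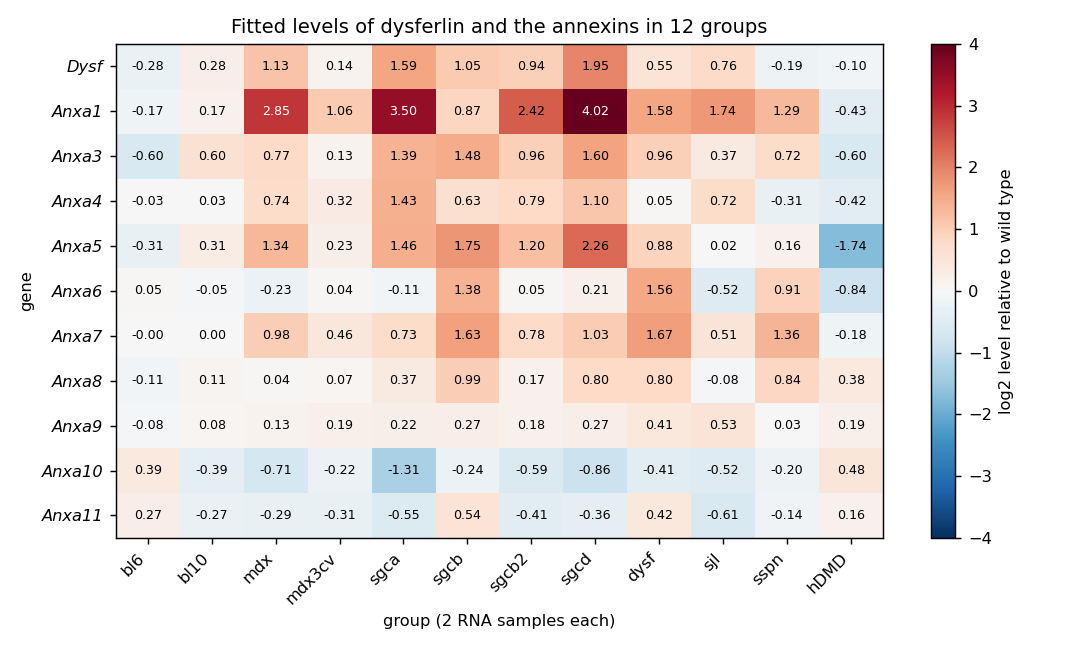
Fitted levels (colour and printed number, log2 relative to wild type) of the 11 members (rows) in 12 groups (columns, 2 RNA samples each). Dysf, Anxa1, Anxa3, Anxa4 and Anxa5 are high in sgcd and sgca, and Anxa3 and Anxa5 are high in sgcb too (1.48 and 1.75). Anxa6, Anxa7 and Anxa8 are high in sgcb, dysf and sspn, and Anxa8 is at 0.80 in sgcd as well. Anxa10 is lowest in sgca (-1.31).

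Contrasts between related groups gave no called member. Between the 2 dystrophin-deficient lines and the 5 sarcoglycan-deficient lines Dysf differed by -0.82 ± 0.38 (SE; limma adjusted p = 1; 0.0153% of all genes called), lower in the dystrophin-deficient lines. It was the 1 member with an unadjusted p under 0.05 (2.09% of all genes). Between sjl and dysf, 3 members had such a p (10.2% of all genes): Anxa6 at -2.08 ± 0.69, Anxa7 at -1.16 and Anxa11 at -1.03 (limma adjusted p = 0.359, 0.412 and 0.45; 0.153% of all genes called), each lower in sjl. Between the wild type strains Anxa3 was 1.20 ± 0.56 higher in bl10 than in bl6 (limma adjusted p = 0.608; 0.0153% of all genes called), the 1 member with an unadjusted p under 0.05 (7.98% of all genes).

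Some members, but not others, ran beside genes of immune cells, and several ran beside markers of other cell types too. In such bulk RNA fewer cells of a type cannot be told apart from less RNA per cell. Over all genes 7.8% were called in the DS lines (median 0.0585) and 0.0459% in the dysferlin-deficient lines (median 0.12). Of 14 macrophage markers measured, 10 rose in the DS lines and 0 fell (median 2.61), and none was called in the dysferlin-deficient lines (median 1.38). Their summed log2 levels were between 15.26 and 45.35 in the DS lines, 10.90 in dysf, 23.67 in sjl, -6.96 in bl6 and 6.96 in bl10. Of 7 neutrophil markers 3 rose in the DS lines, with sums of 22.25 in sgcb, 20.65 in dysf, 17.68 in sgca and 16.87 in sspn, and no more than 8.71 in the other groups. In the dysferlin-deficient lines 1 of them rose, S100a9 by 3.75 ± 0.49 (limma adjusted p = 0.000733), and the list's median was 1.81, against 0.80 in the DS lines. Of 8 fibroblast markers 4 rose (median 0.82), of 7 immature muscle markers 2 rose (median 0.39), and of 8 mature fibre markers none was called (median -0.0251). None of 6 endothelial or 3 T cell markers was called. In lists this short, as in that of the mature fibre markers, no call cannot be told apart from the share of all genes. Markers of muscle fibres were measured, but a ratio cannot show whether any marker was at 0.

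Across the 13 group levels the macrophage median correlated with Anxa4 (r = 0.941), Anxa1 (0.929) and Dysf (0.908). Values were lower for Anxa5 (0.762), Anxa3 (0.676), Anxa9 (0.469) and Anxa7 (0.313). They were -0.0809 for Anxa8, -0.111 for Anxa6, -0.643 for Anxa11 and -0.891 for Anxa10. With the neutrophil median the order changed: r was 0.85 for Anxa8, 0.784 for Anxa6 and 0.723 for Anxa7, against 0.0518 for Anxa1 and -0.0339 for Dysf. Such values were not particular to immune markers. With the fibroblast median r was 0.815 for Anxa5, 0.757 for Anxa3, 0.749 for Anxa1, 0.724 for Dysf and 0.702 for Anxa4. The endothelial median gave 0.832 for Anxa8 and 0.678 for Anxa6, and the mature fibre median 0.787 for Anxa11. In sgcb, dysf and sspn, where the fitted levels of Anxa6, Anxa7 and Anxa8 were high, the medians of the endothelial markers (0.90, 0.83 and 0.90) and of the mature fibre markers (0.98, 0.84 and 0.73) were high too. These are descriptions over 13 points that share arrays, wild type samples and the fit, and the part of other cells in the differences was not tested.

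**Figure D5:**
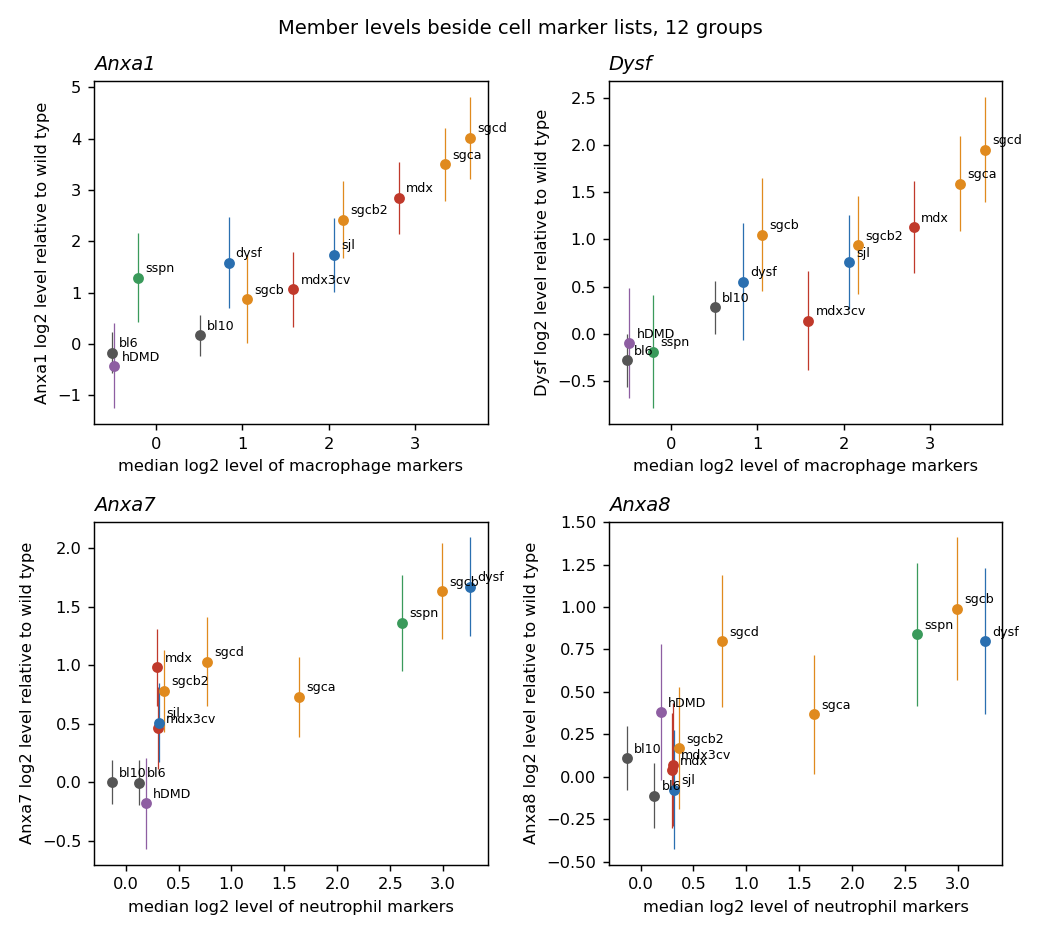
Fitted level of a member (y axis, log2 relative to wild type, bars 1 SE) against the median log2 level of a marker list (x axis) in 12 groups, coloured by the protein that is missing. Anxa1 and Dysf rise along the macrophage median up to sgcd and sgca, while Anxa7 and Anxa8 are high in dysf, sgcb and sspn, the groups with the highest neutrophil medians.

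Members also ran together among themselves over the 13 groups, again as a description of points that share arrays. Dysf correlated with Anxa4 (r = 0.912), Anxa1 (0.866) and Anxa5 (0.813), Anxa3 with Anxa5 (0.913) and Anxa6 with Anxa7 (0.833). Anxa10 ran opposite to Anxa1 (-0.896). Among 6522 other genes, members included but clone and predicted names left out, the 5 with the pattern most like that of Anxa1 were Apoe (r = 0.951), Ctsk (0.95), Csf2rb2 (0.939), Pcsk7 (0.938) and Lmo2 (0.938). For Dysf they were Plk3 (0.969), Dok2 (0.961), Lgmn (0.96), Cib1 (0.96) and Prdx4 (0.956).

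Of 36 measured partners of the members in membrane repair, 5 rose in the DS lines and 0 fell, where 7.8% of all genes were called (median 0.13, against 0.0585 over all genes), and none was called in the dysferlin-deficient lines. The S100 proteins, small calcium-binding partners that join annexins in pairs, had 2 of 3 members higher: S100a4 by 1.98 ± 0.43 (limma adjusted p = 0.009) and S100a11, which binds annexin A1, by 1.38 ± 0.39 (adjusted p = 0.0337). S100a6, which binds several annexins, was at 1.51 (adjusted p = 0.08). Of 9 other repair proteins 2 rose, both of the ESCRT machinery that sheds damaged membrane: Pdcd6ip, which encodes ALIX, by 0.81 ± 0.22 (adjusted p = 0.0297) and Vps4b by 0.80 ± 0.23 (adjusted p = 0.034). Pdcd6, of the same list, went the other way at -0.68 ± 0.23 (adjusted p = 0.0783). Between the wild type strains Pdcd6ip was 0.89 ± 0.35 and Vps4b 0.98 ± 0.36 higher in bl10 than in bl6 (limma adjusted p = 0.541 and 0.512). Of 10 genes for vesicle fusion 1 rose, Vamp7, a SNARE of lysosomes, by 0.87 ± 0.23 (adjusted p = 0.0234).

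Calpains cut dysferlin and annexins at the wound. None of the 7 genes of calpains and their inhibitor was called in the DS lines, where 7.8% of all genes were. In lists this short, no call cannot be told apart from that share. Capn3, the muscle calpain, was at -0.35 ± 0.33 (limma adjusted p = 0.59), and Cast, which encodes the calpain inhibitor calpastatin, at 0.67 ± 0.22 (adjusted p = 0.0685). None of the 6 genes of caveolae was called either, with Cav3, whose protein binds dysferlin, at 0.11 ± 0.28 (adjusted p = 0.877). The 1 other ferlin measured was at 0.0455. Of 7 extracellular or enzymatic partners of annexins 1 rose, again too few to set apart from the share of all genes. It was Pla2g4a, the cytosolic phospholipase A2 that annexin A1 restrains, higher by 0.82 ± 0.25 (limma adjusted p = 0.0434). The list's median was -0.25. With each array centred on its median, 4 of the 36 repair genes and 0 of these 7 were called.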

How the data were processed

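The authors deposited 1 log ratio per spot and array; unit, direction, dyes and normalization are not given in the sources used here. The deposited values were taken as natural log ratios. Repeated steps of 7 or more could be chained on 19 arrays. On 18 the chain's scale was within 1% of the natural log or a whole multiple of it, against 0 for log2 or log10. Some of these had a multiple, as on the array of mdx sample 2 and sgcb2 sample 2 (2.0003). The other chained array, that of mdx sample 1 and bl6 sample 1, gave 0.5011. The chains were those of a generalized logarithm, which understates dim spots. The design had assumed log2, so values were divided by 0.6931. The deposited medians ran from -0.074 to 0.173, so centring is unknown. Of 16416 rows, 13662 had 1 gene, 14 several and 2740 none, and rows of a gene were averaged. Arrays have no read depth; their number limits precision.

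The log2 ratios were fitted with limma 3.58.1, with 1 dye term, 12 group terms and a random effect of each RNA sample (variance ratio 0.207), leaving 13 residual and 20.4 total degrees of freedom. In all, 16 comparisons were made, and the 78 pairs of groups were compared for the order of levels. The fit was also run on data simulated from the fitted model itself, with normal noise and the same shift in all DS lines. This cannot show how the fit fares with outlying arrays. Solved sample levels have no residual, and their differences carry up to 6.5 array variances. The text names all members, partners fixed by name (Trim72, S100a10, Fpr1, Fpr2 and Myof were not measured in the rows used here), up to 6 further partners with the smallest p, and the 5 genes most like Dysf and Anxa1. S100a6 and Pdcd6 were added beside called genes of their lists. Members and lists were chosen with earlier results of these data known. Alternatives covered the estimator, centring, scaling, array weights, replicate block, each wild type strain, separate rows, and leaving out each sample; leaving out 1 array was chosen after seeing the data.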

Additional observations from a re-analysis of the deposited data

Results flagged for a closer look

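Levels of 5 annexins differed between hDMD and another line by limma's test of the pair, adjusted over 6540 genes but not over the 78 pairs of groups. In each pair hDMD was the lower group. Against hDMD, dysf was higher for Anxa6 (2.40 ± 0.60, SE; limma adjusted p = 0.0342) and Anxa7 (1.85 ± 0.37, adjusted p = 0.0116), where 2.4% of all genes were called. The line sgcb was higher for Anxa3 (2.08), Anxa5 (3.49), Anxa6 (2.22) and Anxa7 (1.81), with limma adjusted p of 0.0284, 0.0143, 0.03 and 0.00794 and 5.66% of all genes called. On the array of sgcb sample 2 and hDMD sample 1 the rows of Anxa5 disagreed, at 7.63 and 3.77, as did those of Anxa3, at 4.75 and 2.11. The rows were closer for Anxa6 (3.27 and 3.35) and Anxa7 (1.82 and 2.49). Anxa1 was higher in sgca (3.93, adjusted p = 0.0286; 3.12% of all genes called) and in sgcd (4.45, adjusted p = 0.0163; 1.99%), and Anxa5 was higher in sgcd (4.00, adjusted p = 0.029). The hDMD samples themselves lay far apart: solved levels of samples 1 and 2 were -4.70 and -0.97 for Anxa5, -3.86 and -0.38 for Anxa6, and -1.56 and 0.11 for Anxa7. With hDMD sample 2 left out, 2 members and 275 genes were called in hDMD against wild type, in place of 0 and 1. With hDMD sample 1 left out, no member was called and the fitted hDMD levels were -0.19 for Anxa5, 0.26 for Anxa3, 0.42 for Anxa7, 0.58 for Anxa6 and 0.62 for Anxa1.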

How the results depend on the processing

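No called member changed sign under any of the 36 alternatives; of 6248 values of single members, 354 changed sign, 69 of them by more than 1 SE, all without a call. Dysf in the DS lines lost its call when arrays were centred (1.15, limma adjusted p = 0.0504) or also scaled (1.02), against bl6 alone (1.50) or bl10 alone (0.94), with rows apart (0.88) and without the array of mdx sample 1 and bl6 sample 1 (1.06, adjusted p = 0.171); leaving out 1 sample gave 0.73 to 1.53. Anxa1 lost it against bl10 alone (2.30) and without that array (1.97), and leaving out 1 sample gave 1.85 to 3.03. Anxa7 lost it when scaled (0.84, adjusted p = 0.0569), against bl6 alone (0.97) or bl10 alone (0.97) and without that array (0.94), and leaving out 1 sample gave 0.89 to 1.04.

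The number of members called in the DS lines, 3, was 1 when arrays were scaled, 5 with array weights, 0 against bl10 alone, 0 without that array and 0 to 4 without 1 sample. In mdx, 1 became 0 when centred, scaled, with array weights, under the replicate block, against bl10 alone, with rows apart and without that array, and 0 to 2 without 1 sample. In sgca, 1 became 4 by ordinary least squares, 2 when centred, 6 with array weights, 4 against bl6 alone, 0 against bl10 alone, 2 without that array and 0 to 4 without 1 sample. In sgcd, 1 became 2 by ordinary least squares, 2 when scaled, 3 with array weights, 0 against bl10 alone and 0 to 3 without 1 sample. Array weights gave 1 in sspn, and leaving out 1 sample gave 0 to 1 in dysf and 0 to 2 in hDMD. Over all genes, 510 calls in the DS lines became 657 with array weights, 10 against bl10 alone and 455 against bl6 alone. They became 110 without that array and 74 to 679 without 1 sample. In single lines such calls also moved under the settings other than leaving out 1 sample. They ran from 11 to 1388 in sgca (485 in the main fit) and from 0 to 375 in sgcd (139). In mdx they ran from 1 to 262 (87) and in sspn from 0 to 308 (7). A higher count of members can therefore go with more calls over all genes, and is not by itself particular to the members.

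Whether samples of the same number deviated together was not settled. Over 78 pairs of groups r ran from -0.796 to 0.663 with a median of -0.0338, and 31 exceeded 0.1. These r come from solved levels, which share arrays along the loop, so they cannot exclude a batch by sample number. The replicate block was run as an alternative, under which the 3 members called in the DS lines stayed at 3. With 2 samples a group, single lines allow only large differences to pass.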
